A study of Mus musculus with 3 samples.

Results

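The genes described here are the 7 mouse globin genes Hba-x, Hbb-y, Hbb-bh1, Hba-a1, Hba-a2, Hbb-bt and Hbb-bs, taken by symbol from the 27998 genes of a single-cell count matrix, and all 7 were measured. Mouse embryos of 28 to 32 somite pairs, at E10.5, were dissected and pooled, and cells of their AGM (aorta-gonad-mesonephros) region were sorted. Per the labels, 3 populations were sorted: AGM niche cells (live, Ter119-), endothelial cells (Ter119-CD31+VCad+CD41-cKit+) and T1-preHSCs (Ter119-CD31+VCad+CD41lowcKit+), which are sorted as type 1 precursors of haematopoietic stem cells. All 3 gates took Ter119-negative cells, and Ter119 marks maturing red cells, so the gates were set to leave those cells out. No genotype, strain or treatment is given in the sources used here. The deposited matrix pools the 3 populations under 8 barcode suffixes, called libraries 1 to 8 below, with no map from suffix to population. Each population is 1 sample, so there are no replicates and no test between populations, and every interval below covers counting error only.

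Haemoglobin is built from alpha-like and beta-like chains in equal number, each holding a haem group with its iron. The first red cells of the embryo arise in the yolk sac and use the embryonic chains: Hba-x encodes the zeta chain, which is alpha-like, and Hbb-y and Hbb-bh1 encode the epsilon-y and beta-h1 chains, which are beta-like. Definitive red cells, made later by the fetal liver and bone marrow, use the adult alpha chains of Hba-a1 and Hba-a2 and the adult beta chains of Hbb-bt and Hbb-bs. Primitive red cells also carry adult alpha chains. The embryonic genes are called Hba-x, Hbb-y and Hbb-bh1 below and the other 4 are called the later globins.

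The 3 alpha-like genes lie on chromosome 11 and the 4 beta-like genes on chromosome 7 of GRCm38, the assembly that mm10 names. In the GENCODE M21 annotation the alpha-like genes run along the plus strand in the order Hba-x (chr11:32276400-32278116), Hba-a1 (chr11:32283511-32284465) and Hba-a2 (chr11:32296489-32297298). The beta-like genes are on the minus strand, and in the direction of transcription they run Hbb-y (chr7:103851749-103853216), Hbb-bh1 (chr7:103841637-103843164), Hbb-bs (chr7:103826534-103828096) and Hbb-bt (chr7:103812524-103813996). In both clusters the embryonic genes come first. The matrix lists them as ENSMUSG00000055609 (Hba-x), ENSMUSG00000052187 (Hbb-y), ENSMUSG00000052217 (Hbb-bh1), ENSMUSG00000069919 (Hba-a1), ENSMUSG00000069917 (Hba-a2), ENSMUSG00000073940 (Hbb-bt) and ENSMUSG00000052305 (Hbb-bs). All 7 are protein coding, with 3 exons each, and their coding sequences have 429 bases (alpha-like) or 444 bases (beta-like).

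The assay reads only the 3' part of a transcript, so how far the chains can be told apart depends on how their 3' ends differ. The last 60 coding bases are shown for the 3 closest pairs because the splits between these genes below rest on such differences. Sequences are 5′ to 3′ from the GENCODE M21 transcripts, and capitals mark bases that differ from the paired gene.
Hba-a1: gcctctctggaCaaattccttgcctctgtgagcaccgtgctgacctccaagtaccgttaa
Hba-a2: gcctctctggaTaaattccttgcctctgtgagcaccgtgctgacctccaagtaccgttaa
Hbb-bt: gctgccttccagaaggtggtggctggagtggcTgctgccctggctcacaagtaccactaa
Hbb-bs: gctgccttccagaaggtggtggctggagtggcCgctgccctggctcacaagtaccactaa
Hbb-y: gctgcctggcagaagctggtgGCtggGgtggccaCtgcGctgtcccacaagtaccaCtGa
Hbb-bh1: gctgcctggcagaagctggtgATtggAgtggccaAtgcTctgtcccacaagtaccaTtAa
Hba-a1 and Hba-a2 were identical at 428 of 429 coding bases, and Hbb-bt and Hbb-bs at 443 of 444. Most reads of this assay fall in the last 300 transcript bases. There, with gaps counted, 33 of 316 aligned positions differed between Hba-a1 and Hba-a2 and 42 of 304 between Hbb-bt and Hbb-bs. After the stop codon, 16 of 90 aligned positions differed between Hba-a1 and Hba-a2, whose annotated transcripts have 74 and 90 bases there. Those 16 are gaps from unequal annotated length, so few bases separate this pair. Between Hbb-bt and Hbb-bs, 40 of 135 aligned positions differed after the stop codon. The split within each adult pair is uncertain, more so for Hba-a1 and Hba-a2. A read that misses the differing positions fits both genes, and no source used here says how such reads were counted. Hbb-y and Hbb-bh1 differed at 90 of 318 aligned positions of the last 300 bases and shared 77.0% of aligned coding bases, so reads separate them more readily. The embryonic and adult alpha-like chains were further apart, with 66.3% of aligned coding bases shared by Hba-x and Hba-a1.

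Promoters are printed for an embryonic beta-like gene and an adult alpha-like gene, because the chains of both kinds were found together in the same barcodes below. Each is the 120 bases before the RefSeq start on GRCm38.p6, with Hbb-y at chr7:103853208-103853327 on the minus strand and Hba-a2 at chr11:32296372-32296491 on the plus strand. Capitals mark 4 short motifs known from globin promoters, on either strand: the letters CACCC, read by factors of the Klf family, the letters CCAAT of the box of that name, the letters TATAA of the core promoter and the letters GATA, read by Gata factors.
Hbb-y: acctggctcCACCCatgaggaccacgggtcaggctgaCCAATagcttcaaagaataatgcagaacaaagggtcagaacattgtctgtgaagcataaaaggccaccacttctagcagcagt
Hba-a2: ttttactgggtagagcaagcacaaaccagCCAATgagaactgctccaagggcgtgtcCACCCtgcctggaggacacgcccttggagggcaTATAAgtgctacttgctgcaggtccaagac
In Hbb-y, CACCC began 111 bases and CCAAT 83 bases before the start. In Hba-a2 the order was the reverse, with CCAAT 91, CACCC 63 and TATAA 30 bases before the start. The RefSeq promoter table held 6 of the 7 genes: CACCC was present in all 6, CCAAT in all but Hba-x, and TATAA in all but Hbb-y. GATA was found in Hba-x and Hbb-bs. Among all 32851 promoters of the table, windows of the same length held CACCC in 31.7%, CCAAT in 21.3%, TATAA in 11.8% and GATA in 29.5%, and 6.23% held both CACCC and CCAAT. These matches describe the letters only.

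The matrix held 9492 barcodes and 78653331 UMIs (unique molecular identifiers, 1 per captured transcript). After filters on depth and mitochondrial share and removal of 468 likely doublets, 8915 barcodes were kept, with library medians between 6397.5 and 15564 UMIs. Barcodes were named from marker genes, none of them a globin, and are called "-like" for that reason: 12 erythroid-like, 39 megakaryocyte-like, 47 macrophage-like, 303 haematopoietic-like, 1 granulocyte-monocyte progenitor-like, 2000 endothelial-like and 3718 of other non-blood classes, with 2795 left unnamed. Libraries 7 and 8 were mostly haematopoietic-like and held 5 and 8 non-blood barcodes. Of the barcode sequences, 54 occurred under more than 1 suffix, which covers 101 of the kept barcodes and none of the 65 that stood out for globin below.

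The globin message in this matrix was held almost entirely by 10 barcodes, and it was embryonic in kind. Of 96893 globin UMIs in kept barcodes, 94084 (97.1%) were in 10 erythroid-like barcodes with at least 1000 globin UMIs each, called globin-rich below. Hbb-y was the most abundant globin gene, with 46993 UMIs or 48.5% of all globin UMIs. Hba-x followed with 21875 UMIs (22.6%) and Hbb-bh1 with 18673 (19.3%). The adult alpha genes had 5377 UMIs for Hba-a1 (5.55%) and 2156 for Hba-a2 (2.23%). The adult beta genes were the least abundant, with 670 UMIs for Hbb-bt (0.691%) and 1149 for Hbb-bs (1.19%). These are counts of transcript ends, so they compare molecules between genes with no scaling by length.

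The genes differed in how far their message lay outside those 10 barcodes. For Hba-x, 99.6% of UMIs were in globin-rich barcodes, for Hbb-y 98.7% and for Hbb-bh1 97.5%. The adult alpha genes had 93.2% (Hba-a1) and 93.6% (Hba-a2) there. The adult beta genes had 49.1% (Hbb-bt) and 31.0% (Hbb-bs) there. For Hbb-bs this rests on 1 macrophage-like barcode of library 8, which held 784 of its 793 UMIs outside the globin-rich barcodes, and without that barcode the share was 97.5%. Without it the share of Hbb-bt was 63.8%, below that of each other chain. Hbb-y was seen in the most barcodes, 293 of the 8915, against 18 for Hbb-bs.

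**Figure D1:**
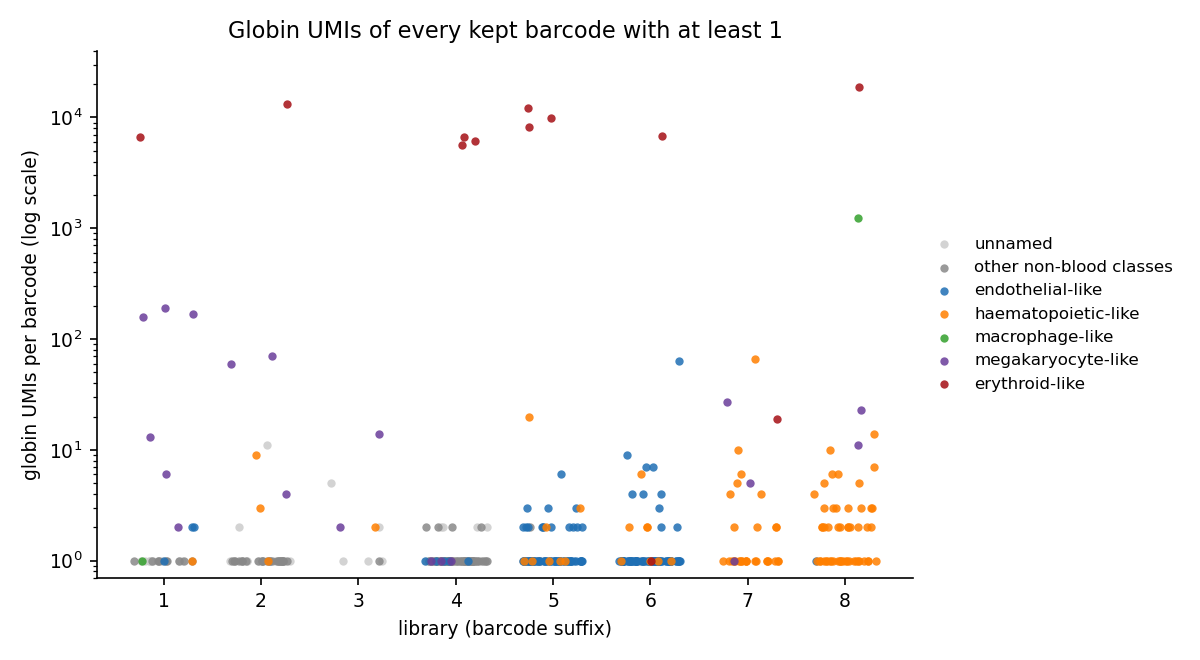
Globin UMIs per barcode (vertical axis, log scale, the 7 genes summed) for the 470 kept barcodes with at least 1 globin UMI, by library (barcode suffix, horizontal axis, points spread sideways for clarity) and colored by marker class. The 10 globin-rich erythroid-like barcodes sit between 5698 and 18800 UMIs, the next barcode is a macrophage-like one at 1240, and most of the others hold 1 UMI.

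The 10 globin-rich barcodes came from 6 libraries: 1 each in libraries 1, 2, 6 and 8, 3 in library 4 and 3 in library 5. None was in libraries 3 or 7. Their globin UMIs were 5698 at the lowest, 7478.5 at the median and 18800 at the highest, which was 31.7%, 47.8% and 54.2% of a barcode's UMIs. The next lower value in the whole matrix was 1240 UMIs, in a barcode of another class. Each had 8 to 14 of the 15 erythroid markers, of which 1, Ahsp, was not among the genes of the matrix. Each had at most 2 markers of any other class and no Kit UMI. Each also had 1 to 4 UMIs of Gata1, the master transcription factor of red cells and megakaryocytes.

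Among the alpha-like chains of the globin-rich barcodes, the embryonic gene led in every barcode. Hba-x had 1199 UMIs at the lowest, 1770.5 at the median and 4568 at the highest. Hba-a1 had 288, 398.5 and 1110, and Hba-a2 had 116, 154 and 448. The ranges of Hba-x and Hba-a1 did not overlap. The adult genes made up 20.1%, 24.4% and 28.5% of alpha-like UMIs (lowest, median and highest). Hba-a1 exceeded Hba-a2 in all 10, by 2.11 to 3.12 times with a median of 2.46. The split between these genes is uncertain, as given above.

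Among the beta-like chains, Hbb-y led and the adult genes were scarce. Hbb-y had 2847, 3862.5 and 8905 UMIs and Hbb-bh1 had 1068, 1473.5 and 3745 (lowest, median and highest). The ratio of Hbb-y to Hbb-bh1 was 2.14 to 3.02 with a median of 2.54, so their order was the same in all 10. Hbb-bt had 0, 23.5 and 96 UMIs, and Hbb-bs had 1, 13 and 206. Adult beta genes made up 0.189%, 0.852% and 4.21% of beta-like UMIs, while adult alpha genes made up at least 20.1% of alpha-like UMIs in each of the same barcodes.

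Taken over all 7 genes, the 3 embryonic genes made up 90.7% of a globin-rich barcode's globin UMIs at the lowest, 91.7% at the median and 93.1% at the highest. Pooled, the embryonic share was 91.8% (95% exact binomial interval 91.6 to 92.0). Beta-like UMIs exceeded alpha-like UMIs in every barcode, by 2.06, 2.26 and 2.74 times (lowest, median and highest). Although total globin UMIs spanned about a 3-fold range, the shares of single chains were close: Hba-x took 19.4% to 25.9%, Hbb-y 47.4% to 52.0%, Hbb-bh1 17.1% to 22.3%, Hba-a1 4.37% to 5.90% and Hba-a2 1.67% to 2.50%. Across the 10 barcodes, beta-like and alpha-like UMIs went together (r = 0.987, or 0.942 without the 2 barcodes farthest from the median), as did Hba-a1 and Hba-a2 (r = 0.988, or 0.945). Both correlations are descriptions over 10 barcodes of unequal depth, which the points share.

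The exception was the makeup of the small adult beta fraction. Hbb-bs made up 2.70% to 40.0% of adult beta UMIs in the 7 globin-rich barcodes outside library 4. At the low end, a library 5 barcode had 1 Hbb-bs and 36 Hbb-bt UMIs (2.70%, exact binomial interval 0.0684 to 14.2). At the high end, another library 5 barcode had 26 and 39 (40.0%, 28.0 to 52.9). The 3 barcodes of library 4 had higher values: 206 Hbb-bs and 0 Hbb-bt UMIs (100%, 98.2 to 100), 54 and 7 (88.5%, 77.8 to 95.3), and 17 and 14 (54.8%, 36.0 to 72.7). The intervals of the first 2 do not overlap that of any globin-rich barcode outside library 4. Hbb-bt and Hbb-bs are near-identical in coding sequence but differed at 40 of 135 aligned positions after the stop codon. Whether the assignment of reads between them bears on the split was not tested. The first of the library 4 barcodes also had the highest adult beta share of beta-like UMIs, 4.21%.

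**Figure D2:**
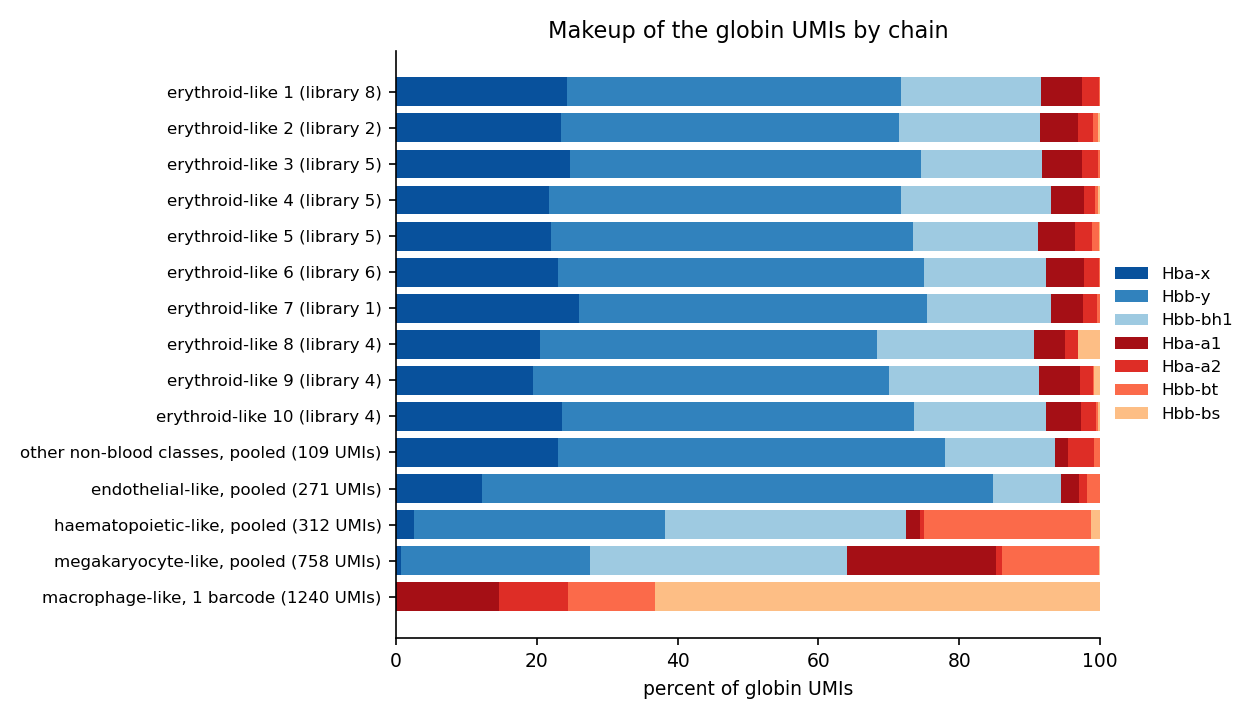
Share of globin UMIs by chain (horizontal axis, percent, embryonic chains in blue and later chains in red and orange) for each of the 10 globin-rich erythroid-like barcodes, for pooled classes and for 1 macrophage-like barcode. The 10 upper bars are nearly alike with 90.7% to 93.1% embryonic UMIs, the haematopoietic-like bar holds a wide Hbb-bt segment (23.7%), and the macrophage-like barcode holds no embryonic chain.

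The other 2 erythroid-like barcodes were named from the same markers and had little globin. One, in library 7, had 19 globin UMIs of 21260 UMIs, of which 16 were Hbb-bh1, 2 Hbb-bs and 1 Hba-a1, with none of Hba-x or Hbb-y. It had 7 erythroid and 5 haematopoietic markers, 3 Gata1 UMIs and 1 Kit UMI. The other, in library 6, had 1 globin UMI (Hbb-bs) of 7703 UMIs and also 1 Kit UMI; Kit is the stem cell factor receptor, carried by early progenitors. Bcl11a, a repressor of embryonic and fetal globins, had 7 UMIs in these 2 barcodes and 0 in the 10 globin-rich ones, and Myb, a transcription factor of progenitors, had 11 and 0. Counts this small are given as values only.

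Genes that build the red cell around its globin were high in the erythroid-like barcodes too. Gene levels were taken as CPM (counts scaled to a library of 1e6 UMIs), here of non-globin UMIs, and a gene was called where log2 of the ratio of (CPM + 10) was at least 1 in size with at least 50 CPM in the higher class. Against the 5718 non-blood barcodes, 380 of 8109 genes (4.69%) were called higher in the 12 erythroid-like barcodes and 757 (9.34%) lower, with a median log2 ratio of -0.39 over all genes. Each of the 7 globin genes was called higher. Hbb-y, for example, stood at 5.37 CPM in the non-blood barcodes, and its log2 ratio of 14.47 was the highest of the 7; Hbb-bt had the lowest, at 7.94. With 12 barcodes, spread over 7 libraries, the direction could not be checked within libraries.

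Haem synthesis had the highest share of called genes among the lists of the red cell programme. Of its 11 measured genes, 10 were called higher, with a list median of 3.54 against -0.39 for all genes. Alas2, the red cell form of the first enzyme of haem synthesis and itself a marker used for naming, stood at 1543 CPM with no UMI in non-blood barcodes. Alad, which catalyzes the next step, stood at 1137 against 77.5 CPM. Tmem14c, which moves porphyrin precursors into mitochondria, stood at 3026 against 284 CPM. Fech, which inserts the iron, stood at 452 against 7.38 CPM. Of the iron genes, 5 of 8 were called higher: the ferritin heavy chain Fth1 (14729 against 1281 CPM), the ferritin light chain Ftl1 (8475 against 3770 CPM), the mitochondrial iron importer Slc25a37 (519 against 6.59 CPM) and the transferrin receptor Tfrc (158 against 22.3 CPM) were among them.

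Red cell enzymes and membrane genes gave like counts. Of 12 measured enzyme and chaperone genes 10 were called higher, 4 of them markers used for naming, and the list median was 4.21. Prdx2, a peroxide-reducing enzyme, stood at 4839 against 1055 CPM, and carbonic anhydrase Car2, a marker, at 2996 against 8.28 CPM. Gpx1, a glutathione peroxidase, stood at 2627 against 295 CPM, and Blvrb, a biliverdin reductase, at 1550 against 9.54 CPM. Of 18 membrane genes 14 were called higher, 7 of them markers, with a median of 2.81. The blood group gene Rhd stood at 316 CPM and the anion exchanger Slc4a1 at 286 CPM, and both are among those markers. The exception called lower was Cd24a, at a log2 ratio of -2.55.

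Regulators of the globin genes had calls in both directions. Of 14 erythroid transcription genes, 7 were called higher, with a median of 1.57. Klf1, the erythroid activator that binds CACCC motifs and itself a marker used for naming, stood at 610 against 0.502 CPM. Gata1, which is not such a marker, stood at 173 against 0.0209 CPM. Of 12 regulators of globin switching, 5 were called higher, 3 of them markers used for naming, and 1 lower. The calls of Myb and Bcl11a rest on the 2 barcodes poor in globin, which held all UMIs of both. With the 10 globin-rich barcodes alone, 3 of 11 measured regulators were higher (Klf1, Ikzf1 and Zbtb7a) and 2 lower (Igf2bp1 and Chd4). The share called over all genes is not given here for these 10 barcodes. Ikzf1, also a marker used for naming, had 7 UMIs in them (67.4 CPM, 27.1 to 139) and Zbtb7a 6 (57.7 CPM, 21.2 to 126). Both lay near the minimum of 50 CPM. Igf2bp1 and Chd4 had 4 and 14 UMIs. The lower one of the 12 barcodes was Igf2bp1, an RNA-binding protein of fetal globin control, at a log2 ratio of -2.53. Per globin-rich barcode, Klf1 had 3, 7 and 17 UMIs and Alas2 8, 19.5 and 35 (lowest, median and highest), so both of these markers were found in all 10. Of the haem synthesis genes 7 of 12 had a UMI in all 10, against 2 of 14 of the transcription genes.

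**Figure D3:**
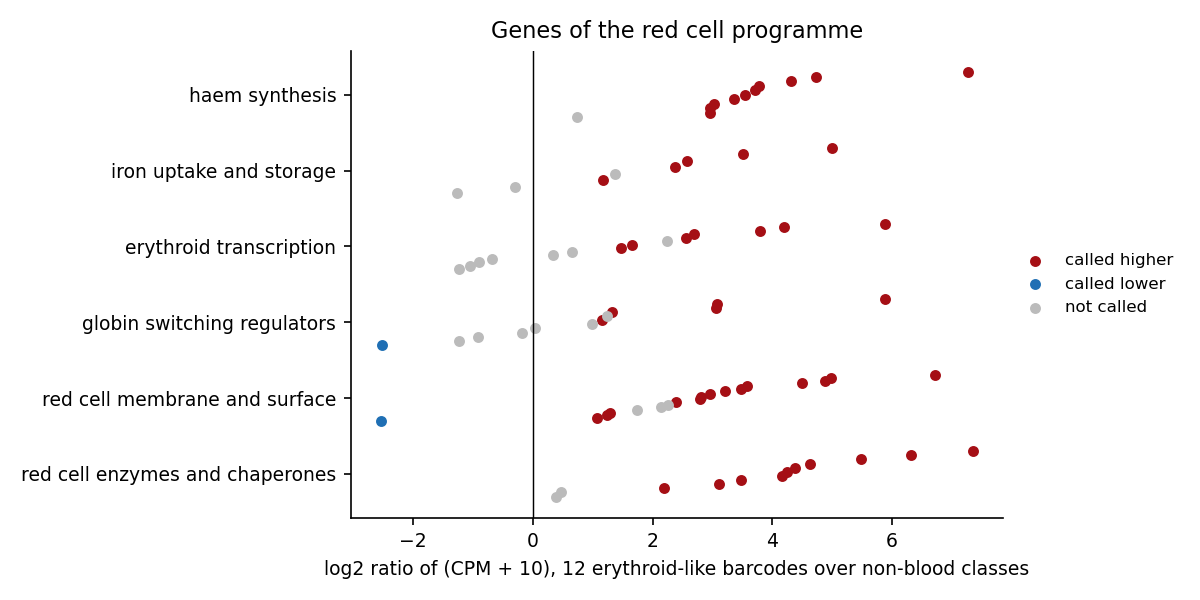
Log2 ratio of (CPM + 10) between the 12 erythroid-like and the 5718 non-blood barcodes (horizontal axis, CPM of non-globin UMIs) for each measured gene of 6 lists of the red cell programme (rows, points spread vertically for clarity). Red points were called higher, blue lower and gray neither; 10 of 11 haem synthesis genes and 10 of 12 enzyme genes are red, and Igf2bp1 and Cd24a are the blue points.

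Barcodes of non-blood classes held a low level of globin message, and it too was mostly embryonic. From here on, CPM is taken over all UMIs. The 5718 non-blood barcodes had 380 globin UMIs, or 7.95 CPM (exact Poisson interval 7.17 to 8.79), of which 94.2% (91.4 to 96.3) were embryonic. In all, 4.48% of these barcodes had a globin UMI at a median depth of 7814.5 UMIs. The 3718 barcodes of classes other than endothelial-like had 109 globin UMIs, or 3.45 CPM (2.84 to 4.17), with no more than 2 in any barcode. Their chain makeup was 22.9% Hba-x, 55.0% Hbb-y and 15.6% Hbb-bh1, with 1.83% Hba-a1, 3.67% Hba-a2, 0.917% Hbb-bt and no Hbb-bs. Set against the pooled globin-rich makeup, the summed difference in shares, halved so that it runs from 0 for equal to 1 for wholly different, was 0.0785.

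This level differed between libraries by more than counting error. Non-blood globin was 2.01 CPM (14 UMIs) in library 1, 2.96 (24) in library 2, 0.168 (1, interval 0.00426 to 0.937) in library 3, 6.28 (59) in library 4, 13.2 (102) in library 5 and 18.8 (179, interval 16.2 to 21.8) in library 6. Libraries 7 and 8 had 0 and 1 globin UMI in their few non-blood barcodes. Library 3, the lowest, had no globin-rich barcode, and libraries 4 and 5 had 3 each with 18557 and 30199 globin UMIs in them. Library 6 had the highest level and 1 globin-rich barcode of 6754 globin UMIs. In classes other than endothelial-like, the level was 1.37, 3.04, 0.174, 5.91, 17.0 and 3.45 CPM in libraries 1 to 6 (9, 24, 1, 54, 17 and 4 UMIs). Library 5 and not library 6 was then the highest. The mix of these classes differed between libraries. Libraries 5 and 6 had 131 and 126 such barcodes, of which 109 and 104 were germ cell-like. Libraries 1 to 4 had 777 to 923 each, with 14 germ cell-like in all.

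Between non-blood classes the level was low throughout, with endothelial-like barcodes at the top in the pooled values. The class levels ran from 1.39 CPM in gut epithelial-like and 1.47 in nephric-like barcodes through 1.66 in neural crest or sympathetic-like, 2.71 in myotome or dermomyotome-like, 2.89 in neural-like, 3.61 in mesenchymal-like, 3.63 in sclerotome-like and 5.31 in coelomic epithelial or gonadal-like barcodes. Germ cell-like barcodes stood at 7.48 CPM (4.09 to 12.5, 14 UMIs, all embryonic) and smooth muscle-like at 8.17 CPM (3.28 to 16.8, 7 UMIs), with intervals that overlap those of most classes below them. Endothelial-like barcodes stood at 16.7 CPM (14.7 to 18.8, 271 UMIs, 94.5% embryonic). The endothelial-like barcodes lay mainly in libraries 5 and 6, the libraries with the highest non-blood level. Pooled over those 2 libraries, endothelial-like barcodes had 17.26 CPM (15.23 to 19.49) and germ cell-like barcodes had 7.99 CPM (4.37 to 13.4), which do not overlap. The gap lay in library 6, at 20.96 CPM (17.97 to 24.31) against 4.19 CPM (1.14 to 10.7, 4 UMIs). In library 5 the values were close, 12.66 CPM (10.11 to 15.66) and 12.55 CPM (6.02 to 23.1, 10 UMIs). All classes other than endothelial-like together stood at 17.0 CPM (17 UMIs) in library 5. Without the 11 endothelial-like barcodes of both libraries above the level defined below, the pooled endothelial-like value was 9.83 CPM (8.31 to 11.6). This overlaps the pooled germ cell-like one. Those 11 were picked by their globin UMIs and no germ cell-like barcode was left out, so the overlap depends on that choice.

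**Figure D4:**
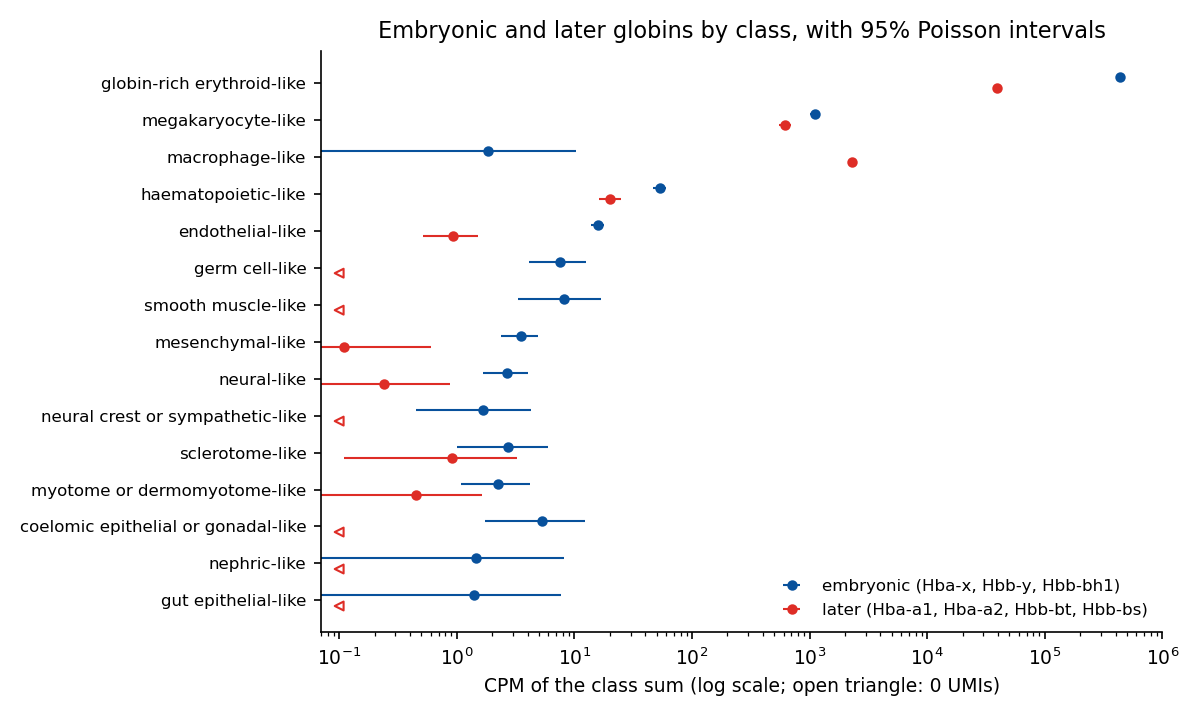
Summed embryonic (blue) and later (red) globin UMIs of each class as CPM (horizontal axis, log scale), with 95% exact Poisson intervals as lines; an open triangle stands for 0 UMIs. The globin-rich erythroid-like barcodes lie far to the right, the non-blood classes lie between 1.39 and 16.7 CPM in total, and the macrophage-like class alone has more later than embryonic globin.

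To find barcodes above this level, each barcode's globin UMIs were set against a Poisson law with the non-blood share of its own library as the mean. A barcode was counted as above it when its sum passed both the count that such a law exceeds in at most 1 of 1000 barcodes and the value that 99 in 100 non-blood barcodes of the library do not exceed. Libraries 7 and 8 had too few non-blood barcodes, so each part of the rule took the highest value of the others. These were the non-blood share of library 6 and the 99 in 100 value of library 5, 2 UMIs. The rule counted 65 barcodes: the 10 globin-rich ones and 55 of the 8905 others (0.618%). Those 55 held 83.5% of the 2809 globin UMIs outside the globin-rich barcodes. In library 3, where the level was near 0, a single UMI was enough in 1 unnamed barcode.

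The 55 were mostly blood barcodes. They were 20 of 303 haematopoietic-like (6.60%, exact binomial interval 4.08 to 10.0), 15 of 39 megakaryocyte-like (38.5%, 23.4 to 55.4), 13 of 2000 endothelial-like (0.650%), 5 of 2795 unnamed, 1 of 47 macrophage-like and 1 erythroid-like, and none of the 3718 of other non-blood classes. The rule was set from the non-blood barcodes, so in a library with enough of them few can pass, whatever the data. The low shares of endothelial-like and other non-blood barcodes are therefore limited by the rule and are not a separate result. Since depth differs between classes, the share of barcodes with a globin UMI was also taken after thinning every barcode to 3000 UMIs. This share does not use the rule. It was 30.6% in megakaryocyte-like barcodes (48.7% unthinned, median depth 12033), 13.9% in haematopoietic-like (34.0%, 13669), 2.96% in endothelial-like (7.65%, 7540) and 0.879% in other non-blood classes (2.77%, 7935.5). Thinning left out 3, 1, 72 and 78 shallower barcodes of these classes.

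In most of the 55, 1 chain stood alone. In 38 of them a single chain made up at least 80% of globin UMIs, in 28 it was the only one, and 47 of the 55 had no Hba-x UMI. The leading chain was Hbb-y in 23, Hbb-bh1 in 19, Hbb-bt in 9, Hba-x in 2, Hba-a1 in 1 and Hbb-bs in 1. The 55 had a median of 6 globin UMIs, with 1 at the lowest. Counts this low limit how many chains a barcode can show. A barcode with very few UMIs also cannot come close to the globin-rich makeup, whatever its source. Only 1 of the 55 lay within 0.2 of that makeup, on the scale from 0 to 1 used above. It was an endothelial-like barcode of library 6 with 63 globin UMIs, 14 Hba-x, 35 Hbb-y, 12 Hbb-bh1 and 2 Hba-a1 (distance 0.0627), which had 13 endothelial markers and 1 erythroid marker. A removed doublet, also endothelial-like and in library 6, had 148 globin UMIs in like proportion (distance 0.0433).

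Haematopoietic-like barcodes differed from the globin-rich ones in which chains they held. The 303 barcodes had 312 globin UMIs, or 73.4 CPM (65.5 to 82.0), and 72.4% (67.1 to 77.3) of them were embryonic, against 94.2% in the non-blood classes. Hbb-y had 111 UMIs in 51 barcodes (26.1 CPM, 21.5 to 31.4), Hbb-bh1 107 UMIs in 14 barcodes (25.2 CPM, 20.6 to 30.4) and Hbb-bt 74 UMIs in 43 barcodes (17.4 CPM, 13.7 to 21.8). Hba-x, which was 23.2% of globin UMIs in the globin-rich barcodes, had 8 UMIs here. Hba-a1 had 6, Hbb-bs 4 and Hba-a2 2. Of the 103 barcodes with a globin UMI, 56 had just 1, while the 20 above the level held 195 of the 312 UMIs.

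Hbb-bt, an adult beta gene, took a larger share of globin UMIs in this class than in the globin-rich and non-blood barcodes. It made up 23.7% (19.1 to 28.8) of haematopoietic-like globin UMIs, against 0.350% in the globin-rich barcodes and 0.917% (0.0232 to 5.01) in non-blood classes other than endothelial-like. Its level was 17.4 CPM, against 0.308 CPM (5 UMIs) in endothelial-like barcodes and 0.0317 CPM (1 UMI) in the other non-blood classes. The globin-rich barcodes had a far higher level of it, 1661.5 CPM (329 UMIs), beside their much larger total of globin. By library, haematopoietic-like Hbb-bt was 9.94, 29.5, 23.1, 0, 18.7, 14.8, 17.7 and 17.5 CPM in libraries 1 to 8, where libraries 1 to 4 had 6 to 11 such barcodes each and libraries 5 to 8 had 23, 27, 85 and 134. It was thus seen in 7 of 8 libraries, with close values in the 4 larger ones. The highest count in a barcode was 6, and 30 of the 43 barcodes had 1. In the 283 barcodes not above the non-blood level it was 34.2% (25.7 to 43.5) of 117 globin UMIs.

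Hbb-y and Hbb-bh1 were spread differently. Haematopoietic-like Hbb-y was 168, 64.2, 24.4 and 17.5 CPM in libraries 5 to 8 and 0 in libraries 1 to 4. The library 5 value rests largely on 1 barcode, which held 20 of its 27 Hbb-y UMIs. Hbb-bh1 was 98.4 CPM in library 2, 39.2 in library 7 and 20.2 in library 8, and 50 of its 107 UMIs were in 1 barcode of library 7, without which the class stood at 13.4 CPM of Hbb-bh1 and library 7 at 2.24. That barcode also held 5 Hbb-y, 3 Hba-x, 3 Hba-a1, 3 Hbb-bt, 1 Hba-a2 and 1 Hbb-bs UMIs, and so had every chain. Of the 303 barcodes, 51 had Hbb-y, 14 Hbb-bh1 and 43 Hbb-bt. Both Hbb-y and Hbb-bh1 were found in 1, Hbb-y and Hbb-bt in 7, and Hbb-bh1 and Hbb-bt in 3. Whether these small overlaps differ from those of unlinked chains was not tested.

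The class was then split at 7 of the 14 endothelial markers, a cut set after the data were seen. In the 148 barcodes with at least 7, Hbb-y was 45.0 CPM (36.5 to 54.9, 97 UMIs) and Hbb-bh1 0.927 CPM (2 UMIs). In the 155 with fewer, Hbb-y was 6.68 CPM (14 UMIs) and Hbb-bh1 50.1 CPM (41.0 to 60.7, 105 UMIs). The order of the 2 embryonic beta-like chains was thus opposite on the 2 sides in the pooled values. Of the 105 UMIs, 50 were in the library 7 barcode named above, without which Hbb-bh1 was 26.4 CPM (19.9 to 34.4) on that side, still above its Hbb-y. Hbb-bt was 20.4 CPM (14.8 to 27.4, 44 UMIs) and 14.3 CPM (9.66 to 20.4, 30 UMIs), with overlapping intervals. Within libraries 7 and 8 the values were 32.1 and 6.65 CPM for Hbb-y and 1.07 and 57.4 CPM for Hbb-bh1 (at least 7 and fewer), with 27.4 CPM of Hbb-bh1 on the second side without that barcode. In libraries 5 and 6 the reversal was not seen: Hbb-bh1 had no UMI on either side, and Hbb-y was 138 CPM in the 36 barcodes with at least 7 markers and 31.6 CPM (3 UMIs) in the 14 with fewer. Of the 37 Hbb-y UMIs behind the 138 CPM, 20 were in 1 barcode of library 5.

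Most haematopoietic-like barcodes with Hbb-bh1 also had Gata1, and few of those with Hbb-y did. Of the 14 haematopoietic-like barcodes with an Hbb-bh1 UMI, 10 had a Gata1 UMI, against 2 of the 51 with Hbb-y and 7 of the 43 with Hbb-bt. The 31 barcodes with a Gata1 UMI had 126 globin UMIs (243 CPM, 202 to 289), of which 95 were Hbb-bh1. The library 7 barcode with every chain held 66 of the 126, and without it the level was 118 CPM (90.4 to 152). The 272 without a Gata1 UMI had 186 (49.8 CPM), of which 102 were Hbb-y. Barcodes with Hbb-y had a median of 9 endothelial markers and those with Hbb-bh1 a median of 2.5. As Gata1 is an activator of globin genes in red cells and is also found in megakaryocytes, its UMIs do not name a lineage.

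**Figure D5:**
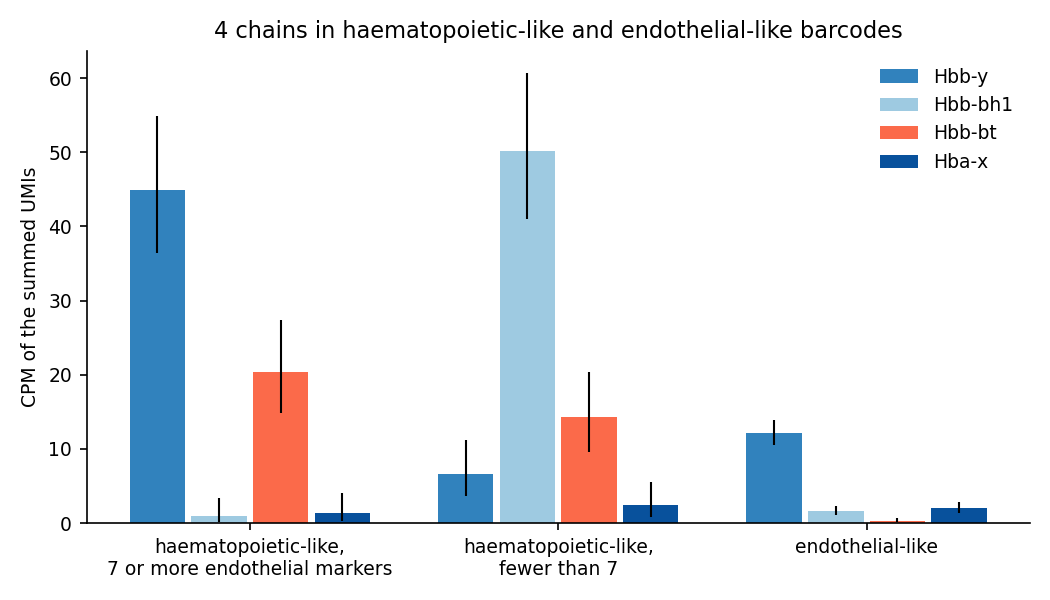
Levels of Hbb-y, Hbb-bh1, Hbb-bt and Hba-x (vertical axis, CPM of the summed UMIs, bars from 0, lines 95% exact Poisson intervals) in haematopoietic-like barcodes with at least 7 endothelial markers (148), with fewer (155) and in endothelial-like barcodes (2000). Hbb-y leads at 45.0 CPM on the left and Hbb-bh1 at 50.1 CPM in the middle, Hbb-bt is present in both and at 0.308 CPM on the right, and Hba-x is low in all 3.

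Set against endothelial-like barcodes, none of the 7 globins was called in the haematopoietic-like class, where 155 of 7938 genes (1.95%) were called higher and 304 (3.83%) lower. Here a call also needs the same direction in libraries 5 and 6, the only ones with at least 20 barcodes of both classes. All 7 globins were under the minimum of 50 CPM. Hbb-bh1 had a log2 ratio of 1.60 pooled but -0.063 and -0.35 within libraries 5 and 6, so its direction was not kept. Hbb-bt had 1.41 pooled, with 1.52 and 1.24 within them, and Hbb-y 0.71, with 3.09 and 1.64. With each library given equal weight, Hbb-y was called higher, at a log2 ratio of 1.90. This ratio and the 3.09 draw on library 5, where 20 of 27 haematopoietic-like Hbb-y UMIs were in 1 barcode. With classes taken from Leiden clusters, which group barcodes by all variable genes, the ratio of Hbb-bh1 was -0.087.

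In the same comparison, the lists of the red cell programme gave calls for regulators, membrane genes and enzymes. Of 11 measured regulators, 4 were called higher: Bcl11a at 2.79, Myb at 3.21, Ikzf1 at 2.96 and Cbfa2t3, a corepressor that works with Tal1, at 1.84 (log2 ratios), where Myb and Ikzf1 are markers used for naming. Bcl11a stood at 107 against 6.95 CPM. Of 13 transcription genes 3 were higher, Nfe2 at 3.17, Tal1 at 1.19 and Gata2 at 1.15. Of the membrane genes 2 of 5 were higher, Epb41 and Cd47, and of the enzyme genes 2 of 8, Car2 and Gpx1. Of haem synthesis genes 0 of 8 were higher and 1 lower, Alad at -1.24, and no iron gene of 7 was called. Over all genes, 1.95% were called higher and 3.83% lower.

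Endothelial-like barcodes, the largest class with globin, showed Hbb-y above all. Of their 271 globin UMIs 197 were Hbb-y, 33 Hba-x, 26 Hbb-bh1, 7 Hba-a1, 5 Hbb-bt and 3 Hba-a2. Against the other non-blood classes 0 of 7 globins were called, where 301 of 8240 genes (3.65%) were called higher and 126 (1.53%) lower, and Hbb-y had a log2 ratio of 0.89. Among the 13 endothelial-like barcodes above the level, 9 held Hbb-y alone, with 2 to 9 UMIs. Without the 13, Hbb-y was 74.7% and Hba-x 10.4% of the remaining UMIs, at a distance of 0.283 from the globin-rich makeup, farther than the 0.0785 of the other non-blood classes. Of the transcription genes 2 of 8 were called higher, Lmo2 at 4.33 and Lyl1 at 3.52, partners of Tal1 that blood and endothelium share.

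Megakaryocyte-like barcodes had a globin level far above that of the non-blood classes, and it was uneven. The 39 barcodes had 758 globin UMIs, or 1723 CPM (1603 to 1850), 64.1% of them embryonic. Without library 1 the level was 567 CPM (494 to 647). By library the level was 10389 CPM in library 1, 2806 in library 2, 218 in library 3, 31.9 in library 4, 564 in library 7 and 297 in library 8, with 4 to 9 barcodes each. Hbb-bh1 had 277 UMIs in 11 barcodes, Hbb-y 204 in 10, Hba-a1 160 in 5 and Hbb-bt 104 in 7. Hba-a2, so close to Hba-a1 in sequence, had 7, and Hba-x had 5 and Hbb-bs 1. The 24 barcodes not above the non-blood level had 4 globin UMIs in all.

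Single barcodes set these sums, and each had its own chains. In library 1, a barcode of 2404 UMIs had 151 Hbb-bh1 and 38 Hba-a1. Another, of 2069 UMIs, had 83 Hba-a1, 45 Hbb-bt and 37 Hbb-bh1, and the third, of 2505 UMIs, had 140 Hbb-y, 10 Hba-a1 and 8 Hbb-bt. These 3 barcodes were shallow beside the class median of 12033 UMIs, had no Hba-x UMI, and carried 9, 5 and 11 megakaryocyte and 0, 1 and 3 erythroid markers. Their globin UMIs were 190, 169 and 158 of the 758 of the class.

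Against endothelial-like barcodes, 4 of the 7 globins were called higher in the megakaryocyte-like class, where 411 of 8098 genes (5.08%) were called higher and 450 (5.56%) lower. They were Hbb-bh1 at a log2 ratio of 5.79, Hba-a1 at 5.16, Hbb-bt at 4.58 and Hbb-y at 4.42. Without library 1 these were 4.20 for Hbb-bh1, 3.02 for Hba-a1 and 2.73 for Hbb-y. No library had 20 barcodes of both classes, so the direction was not checked within libraries. Transcription factors that red cells and megakaryocytes share were higher too, with 6 of 14 called: Gata1 stood at 234 CPM with no UMI in endothelial-like barcodes, Nfe2 at 207 against 0.492 CPM and Gfi1b, a repressor of both lineages, at 134 against 0.123 CPM. Zfpm1, the cofactor of Gata1, Tal1 and Mafg were the other called ones. The erythropoietin receptor Epor stood at 61.4 against 0.677 CPM. Of haem synthesis genes 1 of 9 was called higher, Tmem14c at 1725 against 380 CPM, and of iron genes 0 of 7.

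Macrophage-like barcodes held adult globin in a single barcode and almost none elsewhere. That barcode, in library 8, had 1240 globin UMIs among 28322 (4.38%): 784 Hbb-bs, 182 Hba-a1, 154 Hbb-bt and 120 Hba-a2, with no UMI of Hba-x, Hbb-y or Hbb-bh1. It had all 12 macrophage markers, 12 of the 14 haematopoietic markers, 1 erythroid marker and no Gata1 UMI, and it was the only macrophage-like barcode of libraries 5 to 8. The other 46 macrophage-like barcodes, all in libraries 1 to 4, had 1 globin UMI in all, of Hbb-y. Its adult beta UMIs outnumbered its adult alpha UMIs, and its makeup was at a distance of 0.918 from the globin-rich one. The globin-rich barcode of the same library had 5 Hbb-bs and 19 Hbb-bt UMIs beside 8905 of Hbb-y.

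The 4 later globins were called higher in the macrophage-like class against endothelial-like barcodes, where 360 of 8116 genes (4.44%) were called higher and 441 (5.43%) lower. Their log2 ratios were 7.19 for Hbb-bs, 5.05 for Hba-a1, 4.84 for Hbb-bt and 4.51 for Hba-a2. All of these rest on the 1 barcode: without it Hbb-bs was 0 in both classes and the other 3 ratios were -0.061 (Hba-a1), -0.026 (Hba-a2) and -0.044 (Hbb-bt), with no globin called. The ferritin genes were higher in the class, Ftl1 at 10596 against 3421 CPM and Fth1 at 5411 against 1518 CPM, and both had UMIs in all 47 barcodes. No haem synthesis gene of 8 was called higher, and Alad was lower at a log2 ratio of -1.73.

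To see which genes followed the globins outside the globin-rich barcodes, levels were correlated over 42 sums of at least 20 barcodes of 1 class in 1 library, for 9848 genes. Among the 8 genes most like the summed embryonic globins were Vwf, Apbb1ip, Art4, Slfn2, Nrgn, Trim47 and Dok2, with Pearson's r between 0.871 and 0.896. The 8 most like the summed later globins were Spn, Nrgn, Mctp1, Fcgr3, Sla2, Sla, Spi1 and Rac2, with r between 0.975 and 0.984. Both rankings rest on the 4 haematopoietic-like sums, of libraries 5 to 8, which had the highest levels: 168, 64.2, 66.6 and 39.6 CPM of embryonic and 18.7, 14.8, 24.4 and 18.9 CPM of later globins. In library 5, 20 of the 27 embryonic UMIs of the haematopoietic-like class were in 1 barcode. Spi1 and Rac2 are markers by which that class was named, and the sums share libraries and depth, so the values describe the class and not single genes.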

How the data were processed

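Gene-by-barcode counts of UMIs were deposited by the authors as 1 matrix made with Cell Ranger against mm10, per the submitters' processing notes; its version, gene models and treatment of reads that fit several genes are not given in the sources used here. The libraries were 10x version 2 libraries, with 2 lanes for each population, per the labels' protocols. Gene and barcode names in the deposited lists carry no measured unit.

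Filters asked for 1000 UMIs or more, 500 genes or more and a mitochondrial share of no more than 10%, which 9383 of 9492 barcodes passed. Doublets were scored against simulated ones (2 per barcode, 50 neighbours, 30 principal components of 2000 variable genes) and the top 5% per library were removed. A barcode was named for the class with the largest share of its markers detected, at least 3 of them, and ties were left unnamed. Where that class was endothelial or haematopoietic, 4 or more haematopoietic markers made it haematopoietic-like. The naming rule, the minimum of 1000 UMIs for globin-rich barcodes and the splits by endothelial markers and Gata1 were set after the data were seen. The genes and lists were chosen with earlier results of these data known. Counts were summed per class and library and given as CPM, with 95% exact Poisson intervals for CPM and exact Clopper-Pearson intervals for shares. Amplified reads were collapsed to UMIs, and intervals cover counting error only. No test was run, because a population is 1 sample. Genes were called at a log2 ratio of (CPM + 10) of at least 1 in size and 50 CPM or more in the higher class, with the same direction in each library with 20 or more barcodes of both classes; the steps recovered spiked changes when tested on simulated data. The text names the globins, up to 4 genes of each list with the highest CPM in any class, and the 8 genes most like the globins; other genes of the lists were named after their values were seen. Some genes that this rule names are not reported here. Of 8 libraries none could be assigned to a population. Alternatives covered filters, doublets, gates, Leiden clusters, library weights, the level, the pseudocount, the minimum CPM, TMM factors (edgeR 4.0.16) and leaving out each library. Scripts used Python 3.11.15, numpy 2.4.6, scipy 1.17.1, pandas 2.3.3, scikit-learn 1.9.0, leidenalg 0.10.2, Biopython 1.88, matplotlib 3.10.9 and R 4.3.3.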

Additional observations from a re-analysis of the deposited data

How the results depend on the processing

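The globin level of non-blood barcodes, 7.95 CPM, moved with how those barcodes were chosen: it was 11.6 with no barcode filter, 11.2 with a stricter filter, 10.7 with doublets kept, 10.1 with a stricter gate, 7.17 with Leiden clusters, 3.45 without endothelial-like barcodes, 5.52 without barcodes above the level, and 5.25 (without library 6) to 9.05 (without library 3) with 1 library left out. Its embryonic share, 94.2%, was 96.6% with libraries weighted equally and 92.4% to 95.5% with 1 library left out. The embryonic share of the haematopoietic-like class, 72.4%, was 65.0% with Leiden clusters, 78.0% with equal weights, 62.4% without barcodes above the level, 67.1% with at least 7 endothelial markers, 77.5% with fewer, and 70.6% to 75.7% with 1 library left out. The 65 barcodes above the level became 44 when only later globins were counted, 86 at the 99th Poisson percentile and 53 to 62 with 1 library left out. The cause of these shifts was not tested.

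Counts of called genes moved with the pseudocount and the minimum, by construction. With a pseudocount of 50 CPM, higher and lower calls were 83 and 180 (haematopoietic-like over endothelial-like), 258 and 255 (megakaryocyte-like), 281 lower (macrophage-like), 178 and 82 (endothelial-like over other non-blood) and 187 and 484 (erythroid-like over non-blood). With a minimum of 20 CPM they were 263 and 534, 647 and 832, 624 and 821, 492 and 297, and 579 and 1727, in the same order. With 1 library left out the ranges were 147 to 179 and 297 to 314, 381 to 458 and 439 to 485, 356 to 386 and 440 to 475, 295 to 307 and 126 to 145, and 369 to 401 and 753 to 836. Of single globins, Hbb-bh1 in the haematopoietic-like class turned to -0.087 with Leiden clusters. In the macrophage-like class without library 8, which holds the 1 barcode with globin, Hba-a1, Hba-a2 and Hbb-bt were -0.061, -0.027 and -0.035 (highest with 1 library left out: 5.54, 4.99 and 5.33, without library 3), without that barcode alone -0.061, -0.026 and -0.044, and without the barcode with the most globin in every class -0.044, -0.026 and -0.044. With Leiden clusters 7 globins were called higher in that class. TMM factors, between 0.983 and 1.02, moved no count by over 1.5 times. Equal weights per library gave no value for the megakaryocyte-like and macrophage-like comparisons, as no library had 20 barcodes of both classes, and the comparison of erythroid-like with other blood classes was not run with 12 barcodes. No paired analysis was possible because each population is 1 sample.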

Other observations

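Of the other genes of the globin clusters, 1 was measured in the erythroid-like comparison and it was called higher. Hbq1b, a theta-like gene of the alpha cluster, had 21 UMIs in kept barcodes, 19 of them in 8 of the 10 globin-rich barcodes, and stood at 143 CPM of non-globin UMIs in the erythroid-like class, with no UMI in non-blood barcodes. Its close copy Hbq1a had 3 UMIs, none in a globin-rich barcode, and Hbb-bh2 had 1, in a globin-rich barcode. Of the 3 removed doublets with at least 10 globin UMIs, the 2 that were not endothelial-like were megakaryocyte-like and in library 2. One had 23 Hbb-bh1 and 3 Hbb-bt UMIs and the other 10 Hba-a1 and 7 Hbb-bt UMIs, and neither had Hba-x or Hbb-y.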
